A study of Arabidopsis thaliana with 12 samples.

Results

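The genes described here are 70 moderately abundant Arabidopsis thaliana transcripts that were higher in the psaf line than in wild type. The psaf line carries an antisense construct against the gene of PSI-F, a protein of photosystem I that the plants lack, and the comparison is with wild type (WT); the labels give the Columbia 0 ecotype for both. Total RNA was hybridised to 12 arrays, 6 of WT and 6 of psaf, numbered 1 to 6 in each genotype. The labels name neither the promoter that drives the construct, nor the number of transformed lines, the tissue, the age of the plants or the plants behind each array. None of 16 marker genes of green leaf, root, flower, seed or senescing tissue lay on a probe with a single named gene, and neither did PSAF itself, so neither the tissue nor the loss of the PSAF transcript could be checked. In such bulk RNA, fewer cells of a type and less RNA per cell cannot be told apart.

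Photosystem I takes electrons from plastocyanin in the thylakoid lumen and passes them to ferredoxin in the stroma of the chloroplast. PSI-F lies on the lumenal side, where plastocyanin docks. Reduced ferredoxin feeds carbon fixation, nitrogen and sulfur assimilation and cyclic electron flow around the photosystem. Cyclic flow runs in part through the chloroplast NDH complex. Most chloroplast proteins are encoded in the nucleus, so their transcripts can be measured beside those of the rest of the cell.

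Of 3439 probes, 692 carried the name of exactly 1 gene, and these stood for 691 genes. A gene could be a member when its brightest probe was above 0 on all arrays and had a mean deposited intensity below 2.0, which left 604 genes. Each array was divided by its median over probes above 0 on all arrays, so a relative intensity of 1 is that of the array's median probe. Members had a psaf mean at least 0.4 above the WT mean on the log2 scale, with every psaf array above every WT array. Alone, the size was met by 20.5% of the 604 genes and the lack of overlap by 14.4%. Both were met by 74 of the 604 genes (12.3%), and the same rule turned round was met by 72 genes that were lower in psaf (11.9%). Of the 74, 4 were left out by name: PRK, CML30, ATSIK and PSBY, with differences of 1.11, 0.97, 0.80 and 0.73. A further 4 genes of plastid ribosomal proteins were left out by name and did not meet the values. The 70 members were thus chosen by their measured psaf and WT values on these same arrays, so their differences are a description and carry no test.

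Over all 3277 probes that could be tested, 439 were higher in psaf (13.4%) and 328 were lower (10%; limma over 3 pair means in each genotype, adjusted p under 0.05). The means are of pairs because arrays 1 and 2, 3 and 4, and 5 and 6 of a genotype lay close to each other. Log2 differences between arrays had a robust SD of 0.119 to 0.157 inside such a pair and of 0.451 to 0.616 across genotypes. For arrays of 1 genotype but of different pairs it was 0.255 to 0.432 in WT and 0.219 to 0.286 in psaf. A pair was counted as 1 sample, and ± is the SD over 3 pair means unless it is called an SE. For single genes the mean and SD are of pair means in relative intensity. Log2 differences, folds and SEs come from means on the log2 scale. The printed means therefore do not give the printed difference exactly, least of all where 1 pair stands apart. No label ties an array or a pair to plants of its own, so the p-values rest on a spread between samples that may be technical alone. Summed intensities of an array were 3563 to 3745. A value of 0 was held by 4.45% to 5.18% of probes on an array. The array medians used for scaling were 0.573 to 0.605 in WT and 0.442 to 0.486 in psaf, and each difference below includes that gap.

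The median member was 0.64 higher in psaf on the log2 scale, a fold of 1.56, and the differences ran from 0.40 to 1.70. The median over all 604 genes was -0.01, with an upper quartile of 0.33. A log2 difference of at least 1 was seen in 10 members, 35 lay between 0.6 and 1, and 25 lay between 0.4 and 0.6. The space between the lowest psaf array and the highest WT array ranged from 0.0016 log2 in AT3G20920 to 1.01 log2 in AT1G01730, with a median of 0.26. Mean deposited intensities of members ran from 0.0492 to 1.91 with a median of 0.70, against 0.479 for the 604 genes. A mean of at least 1 was found in 35.7% of members and in 15.1% of the 604. These means include the psaf arrays, on which members were chosen as high, so the rule itself can raise them.

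**Figure D1:**
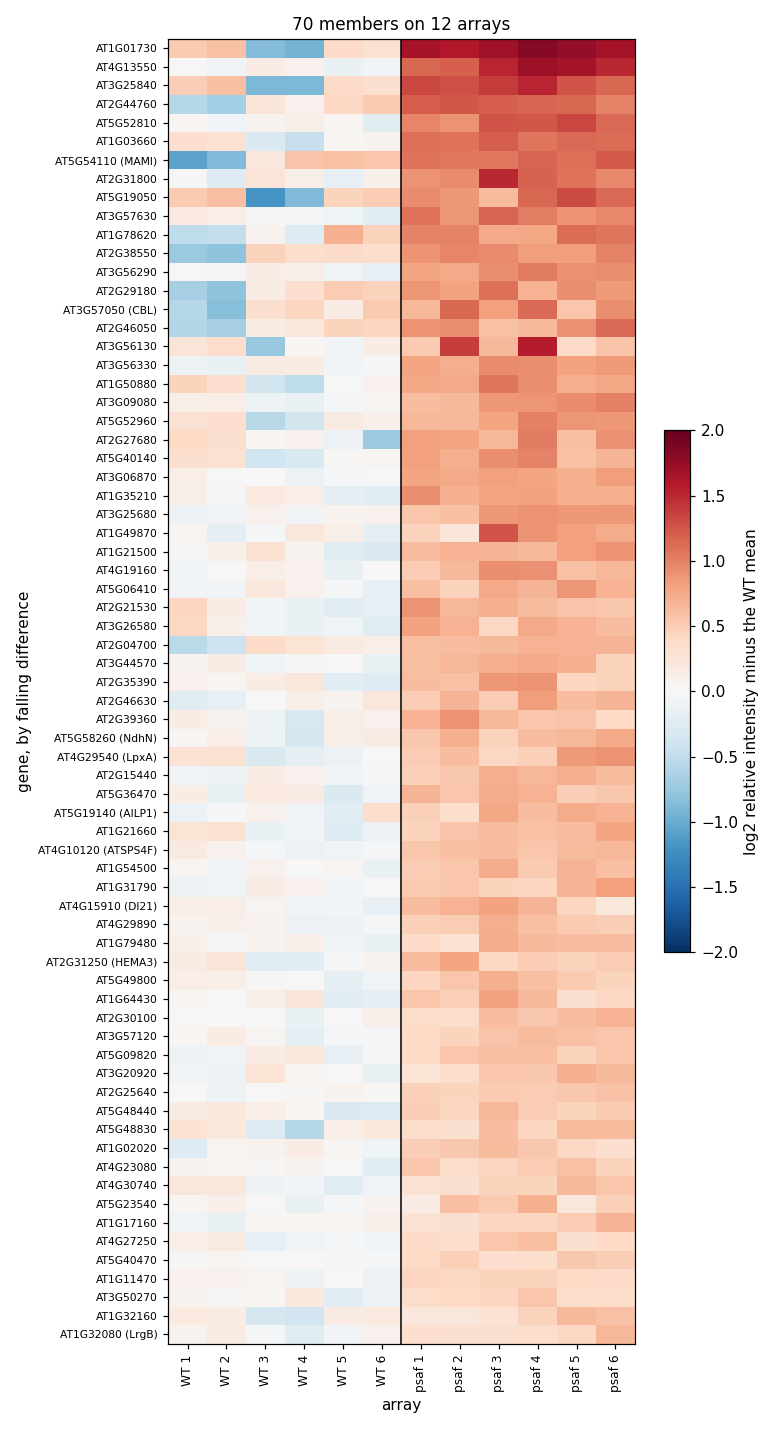
Heat map of the 70 members (rows, by falling difference) on the 12 arrays (columns). Colour is log2 relative intensity minus the gene's WT mean, from -2 to 2. All psaf columns lie above all WT columns in every row, as the rule asks, and WT arrays 1 and 2 or 3 and 4 are pale to deep blue for a subset of genes.

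Only 9 members have a gene symbol in the annotation (12.9%, against 13.2% of the 604 genes), and they fall under sulfur and pigment metabolism, electron flow and photorespiratory transport in the chloroplast, sugar and lipid synthesis, and stress-named proteins. The other 61 members are known here by gene ID alone and are given no role.

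CBL (AT3G57050) is cystathionine beta-lyase, the plastid enzyme that makes homocysteine on the way to methionine. Its relative intensity was 0.153, 0.325 and 0.398 on the lowest, median and highest WT array and 0.405, 0.506 and 0.609 in psaf. The genotypes just failed to overlap, and WT arrays 1 and 2, at 0.185 and 0.153, lay well under the other 4. Pair means were 0.292 ± 0.107 in WT and 0.506 ± 0.0411 in psaf (SD, n = 3), and psaf was 0.87 higher on the log2 scale (SE 0.36). Without WT arrays 1 and 2 the difference was 0.52, and after subtracting the shared deviation of the 4 nearest probe numbers it was 0.55.

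HEMA3 (AT2G31250) belongs to the gene family of glutamyl-tRNA reductase, the enzyme at the entrance to chlorophyll and haem synthesis. Its WT arrays read 1.74, 2.08 and 2.44 (lowest, median and highest) and its psaf arrays 2.73, 2.91 and 3.55. Psaf arrays 1 and 2 were the highest of their genotype, at 3.18 and 3.55, and WT arrays 1 and 2 were the highest of theirs, at 2.30 and 2.44. Pair means were 2.06 ± 0.313 and 3.01 ± 0.300 (SD, n = 3), and the log2 difference was 0.55.

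NdhN (AT5G58260) is a subunit of the chloroplast NDH complex, which returns electrons from ferredoxin to plastoquinone. WT arrays stood at 0.427, 0.577 and 0.610 and psaf arrays at 0.753, 0.851 and 0.923 (lowest, median and highest relative intensity). WT arrays 3 and 4, at 0.508 and 0.427, were the lowest of all, and without them the log2 difference was 0.51. Pair means were 0.549 ± 0.0731 and 0.844 ± 0.0495 (SD, n = 3). NdhN was 0.63 higher in psaf on the log2 scale (SE 0.13), and it was 0.59 higher after the correction for neighbouring probe numbers. On the deposited scale it was 0.27 higher and the genotypes overlapped.

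LrgB (AT1G32080) is the chloroplast envelope transporter that exports glycolate and brings in glycerate during photorespiration. Its lowest, median and highest WT arrays were at 0.632, 0.757 and 0.836, and those of psaf at 0.925, 0.946 and 1.18. Psaf array 6 alone was at 1.18, and the next highest was at 0.993. LrgB had the smallest difference of all members, 0.40 log2 (pair means 0.746 ± 0.0628 and 0.985 ± 0.0828, SD, n = 3). On the deposited scale that difference was 0.04 and the genotypes overlapped, and after the neighbour correction it was 0.16.

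ATSPS4F (AT4G10120) encodes a sucrose-phosphate synthase, which makes the precursor of sucrose in the cytosol. Relative intensities were 1.68, 1.79 and 2.08 in WT and 2.69, 2.78 and 2.90 in psaf (lowest, median and highest). The psaf arrays were close together, and pair means were 1.84 ± 0.149 and 2.78 ± 0.0761 (SD, n = 3). The log2 difference of 0.60 had an SE of 0.07. The deposited values, without any scaling, also kept every psaf array above every WT array for this gene, with a difference of 0.24.

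LpxA (AT4G29540) is the plant relative of the bacterial acyltransferase that opens lipid A synthesis. WT arrays ran from 1.29 over a median of 1.505 to 1.94, and psaf arrays from 2.08 over 2.30 to 2.90. In WT, arrays 1 and 2 were the highest, at 1.91 and 1.94, and in psaf arrays 5 and 6 were, at 2.83 and 2.90. Pair means were 1.58 ± 0.308 and 2.43 ± 0.387 (SD, n = 3), and the log2 difference was 0.62.

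Of the members named for stress treatments, MAMI (AT5G54110), annotated as a membrane-associated protein induced by mannitol, differed most. Its WT arrays read 0.439, 1.21 and 1.38 (lowest, median and highest) and its psaf arrays 1.90, 1.95 and 2.14. The psaf arrays were tightly grouped, while WT arrays 1 and 2, at 0.439 and 0.498, lay far under the other WT arrays, which read 1.07 to 1.38. Pair means were 1.01 ± 0.479 and 1.99 ± 0.0660 (SD, n = 3). The difference between means on the log2 scale was 1.11 (SE 0.49), and it was 0.63 without WT arrays 1 and 2.

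DI21 (AT4G15910), annotated as drought-induced, was at 0.954, 1.08 and 1.17 on the lowest, median and highest WT array and at 1.26, 1.68 and 1.87 in psaf. Psaf arrays 5 and 6 were the lowest of the psaf group, at 1.44 and 1.26. The log2 difference was 0.57 (pair means 1.08 ± 0.0886 and 1.61 ± 0.233, SD, n = 3).

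AILP1 (AT5G19140), of a family named for aluminium-induced proteins, was the dimmest member. WT arrays stood at 0.0654, 0.0730 and 0.0962 and psaf arrays at 0.0965, 0.119 and 0.129 (lowest, median and highest). WT array 6, at 0.0962, lay 0.004 log2 under the lowest psaf array. Its mean deposited intensity of 0.0492 is below 0.106, the level under which the dimmest 5% of values above 0 lie, and it is the only member under that level. The log2 difference of 0.61 became 0.37 when 0.106 was added before log2, and the genotypes then stayed apart. They overlapped on the deposited scale, where the difference was 0.25. They also overlapped after quantile normalisation (0.52), cyclic loess (0.58) and the neighbour correction (0.51).

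**Figure D2:**
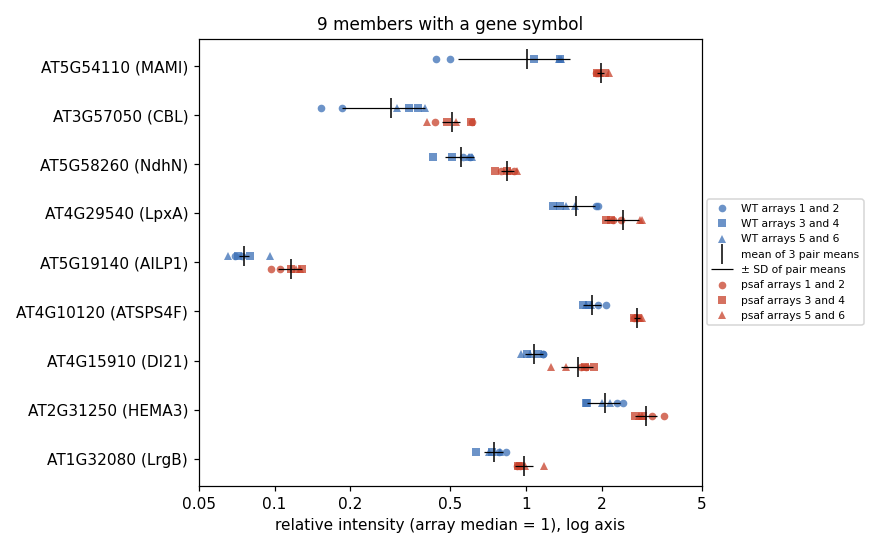
Relative intensity (array median = 1, log axis) of the 9 members with a gene symbol on each array. Blue is WT and red is psaf, symbols mark the close pairs, the vertical tick is the mean of 3 pair means and the bar its SD. MAMI and CBL have WT arrays 1 and 2 far to the left of the other WT arrays, and AILP1 lies near 0.1.

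The largest differences were on genes without a symbol. AT1G01730 had WT arrays at 0.593, 1.46 and 1.72 and psaf arrays at 3.46, 3.66 and 4.03 (lowest, median and highest relative intensity). WT arrays 3 and 4 were the low ones, at 0.626 and 0.593, and the psaf group was compact. Pair means were 1.25 ± 0.566 and 3.71 ± 0.174 (SD, n = 3). Between means on the log2 scale, psaf was 1.70 higher (SE 0.46), a fold of 3.24. AT3G25840 showed the same pair low, with WT arrays at 0.471, 1.13 and 1.34 and psaf arrays at 1.96, 2.19 and 2.54. Its log2 difference of 1.33 was 0.88 without WT arrays 3 and 4 (pair means 0.962 ± 0.431 and 2.22 ± 0.198). These genes are on probe numbers 2840 and 2842.

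In AT4G13550 both genotypes were compact in comparison with the distance between them. WT arrays read 0.202, 0.218 and 0.245 and psaf arrays 0.491, 0.629 and 0.725, with pair means of 0.221 ± 0.0164 and 0.612 ± 0.0982 (SD, n = 3) and a log2 difference of 1.46. The offset of 0.106 lowered this difference to 1.004. Psaf arrays 1 and 2 were the lowest of the psaf group, at 0.491 and 0.507. AT2G31800 was alike in size of signal and spread. It stood at 0.209, 0.255 and 0.298 in WT and at 0.465, 0.509 and 0.710 in psaf, a log2 difference of 1.10 (pair means 0.251 ± 0.0295 and 0.538 ± 0.0838).

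AT5G52810 and AT3G57630 were the members with a difference of at least 1 whose WT arrays were most even at a brighter signal. AT5G52810 was at 2.03, 2.43 and 2.55 in WT and at 4.42, 5.37 and 5.95 in psaf. Its pair means were 2.37 ± 0.149 and 5.24 ± 0.605 (SD, n = 3), and the log2 difference of 1.14 had an SE of 0.11. AT3G57630 was at 1.12, 1.31 and 1.51 in WT and at 2.43, 2.61 and 2.94 in psaf. Pair means were 1.32 ± 0.148 and 2.64 ± 0.155, and the difference of 1.001 log2 had an SE of 0.10. In both genes the nearest arrays of the genotypes were clearly apart.

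AT2G44760 read 1.03, 1.85 and 2.37 in WT and 3.29, 3.74 and 3.92 in psaf. WT arrays 1 and 2 were low, at 1.11 and 1.03. The log2 difference was 1.16 (pair means 1.73 ± 0.614 and 3.70 ± 0.211, SD, n = 3). AT1G03660 read 1.20, 1.72 and 2.10 in WT, where arrays 3 and 4 were the lowest, and 3.49, 3.57 and 3.83 in psaf. Its psaf pair means, 3.60 ± 0.0640, were nearly equal, against 1.69 ± 0.402 in WT, and the difference was 1.12.

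AT5G19050 came close to overlap, with WT arrays at 0.168, 0.529 and 0.575 and psaf arrays at 0.587, 0.784 and 0.943. WT arrays 3 and 4 stood at 0.168 and 0.206 and the other WT arrays at 0.515 to 0.575. Without that pair the log2 difference of 1.01 was 0.49 (pair means 0.425 ± 0.208 and 0.768 ± 0.105, SD, n = 3).

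AT1G78620 was graded in WT, from 0.293 and 0.300 on arrays 1 and 2 to 0.687 and 0.576 on arrays 5 and 6. The psaf arrays stood at 0.709, 0.831 and 0.905, so WT array 5 lay just under the lowest of them. Its log2 difference was 0.95 (pair means 0.439 ± 0.171 and 0.811 ± 0.0922, SD, n = 3). AT2G38550 read 0.577, 1.29 and 1.40 in WT and 1.80, 1.92 and 2.01 in psaf. WT arrays 1 and 2 were low, at 0.603 and 0.577, and without them the difference of 0.91 was 0.53 (pair means 1.08 ± 0.425 and 1.91 ± 0.0367).

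**Figure D3:**
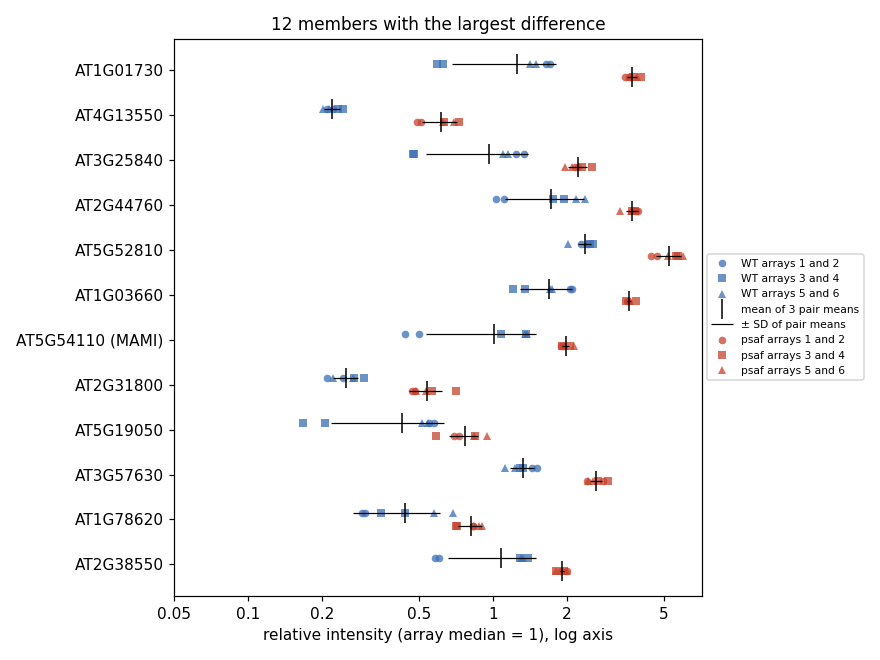
Relative intensity (array median = 1, log axis) of the 12 members with the largest difference on each array, drawn as in the plot of named members. The psaf points of a gene lie to the right of its WT points throughout, and the WT bars of AT1G01730, AT3G25840, AT5G54110 (MAMI), AT5G19050 and AT2G38550 are long because 1 close pair is low.

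Below these, AT3G56290 was 0.89 higher in psaf, AT2G29180 0.88, AT2G46050 and AT3G56130 0.85, AT3G56330 and AT1G50880 0.84 and AT3G09080 0.83, all on the log2 scale. AT5G52960 and AT2G27680 differed by 0.81, AT5G40140 by 0.79 and AT3G06870, AT1G35210 and AT3G25680 by 0.78. AT3G56130 was uneven in psaf, with arrays 2 and 4 at 0.588 and 0.663 and the other 4 at 0.292 to 0.352, so its high arrays were not a close pair. CBL had the same arrays 2 and 4 highest in psaf, at 0.609 and 0.604.

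Differences from 0.60 to 0.73 were held by AT1G49870 (0.73), AT1G21500 (0.72), AT4G19160 (0.71), AT5G06410 (0.68), AT2G21530 (0.67), AT3G26580 and AT2G04700 (0.66) and AT3G44570 (0.65). AT2G35390 and AT2G46630 differed by 0.64, AT2G39360 by 0.63, AT2G15440 and AT5G36470 by 0.62, AT1G21660 by 0.61 and AT1G54500 by 0.60. AT2G15440 had even WT arrays, at 0.687 to 0.813, and psaf arrays at 1.02 to 1.22. AT1G54500 ran from 1.0005 to 1.16 in WT and from 1.55 to 1.83 in psaf.

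Among the smaller differences, AT1G31790 stood at 0.57, AT4G29890 at 0.56, AT1G79480 at 0.55, AT5G49800 and AT1G64430 at 0.54 and AT2G30100, AT3G57120 and AT5G09820 at 0.53. AT3G20920 differed by 0.52, AT2G25640 and AT5G48440 by 0.51, AT5G48830 by 0.50, AT1G02020 by 0.49, AT4G23080 by 0.48 and AT4G30740 by 0.46. AT2G25640 was among the most even of these, with WT arrays at 1.67 to 1.87 and psaf arrays at 2.43 to 2.69. Its genotypes stayed apart on the deposited scale too, but with a difference of 0.15. After quantile normalisation and cyclic loess the difference was 0.390 and 0.396, under the 0.4 of the rule.

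Nearest to the threshold were AT5G23540 and AT1G17160 at 0.45, AT4G27250 and AT5G40470 at 0.44, AT1G11470 at 0.42, and AT3G50270 and AT1G32160 at 0.41, followed by LrgB. AT5G40470 and AT1G11470 show how small a spread can accompany such a difference. AT5G40470 read 1.52 to 1.61 on the WT arrays and 1.97 to 2.27 on the psaf arrays. AT1G11470 read 1.45 to 1.67 and 2.06 to 2.14.

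Just outside the rule, AT4G00170, THIC (AT2G29630) and OTP70 (AT4G25270) had no overlap between genotypes but differences of 0.39, 0.38 and 0.36. AT1G53050, AT2G34450 and GLR2.7 (AT2G29120) had differences of 1.19, 1.01 and 0.92 but overlapped. The lowest psaf array of AT1G53050 was at 1.74, under its highest WT array at 2.17.

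The scaling of the arrays set how many of the members stood clear of WT. All 70 were higher in psaf on the log2 scale under each of 4 scalings, median scaling, quantile normalisation, cyclic loess and the deposited values, and the sign is fixed in part by how they were chosen. Of the 604 genes, 48.7%, 44.5%, 49.2% and 22.7% were higher under these in turn. On the deposited scale the median member difference was 0.28 and the range 0.04 to 1.34, while the median over the 604 genes was -0.37. There 26 members stayed at or above 0.4, as did 6.46% of the 604 genes, and 22 kept every psaf array above every WT array, which 4.3% of the 604 did. Quantile normalisation gave 57 and 61 members (17.2% and 12.3% of the 604), and cyclic loess gave 58 and 65 (19.7% and 14.9%). Over all probes, limma called 156 higher (4.76%) and 1108 lower (33.8%) on the deposited scale, 281 higher (8.57%) and 416 lower (12.7%) after quantile normalisation and 361 higher (11.1%) and 410 lower (12.7%) after cyclic loess. Among the 604 genes, the rule called 74 higher and 72 lower after median scaling, 19 (3.15%) and 210 (34.8%) on the deposited scale, 55 (9.11%) and 86 (14.2%) after quantile normalisation and 66 (10.9%) and 73 (12.1%) after cyclic loess.

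Both parts of the rule were met under all 4 scalings by 16 members. They are AT1G01730, AT4G13550, AT3G25840, AT2G44760, AT5G52810, AT1G03660, MAMI, AT2G31800, AT3G57630, AT3G56290, AT3G56330, AT3G09080, AT5G52960, AT3G06870, AT1G35210 and AT3G25680, and the deposited scale alone decides this number. The remaining 8 members with a symbol are not among them. Of these 8, only ATSPS4F kept every psaf array above every WT array on the deposited scale. There CBL differed by 0.51, NdhN and LpxA by 0.27, DI21 by 0.21 and HEMA3 by 0.19, each with overlap, as for LrgB and AILP1. Cyclic loess moved bright members more. For the 25 members with a mean deposited intensity of at least 1 the median difference was 0.65 after median scaling and 0.50 after cyclic loess. The other 45 stood at 0.64 and 0.68. AT4G29890, with a mean intensity of 1.87, went from 0.56 to 0.26, and AT1G21660, with 1.91, from 0.61 to 0.31.

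**Figure D4:**
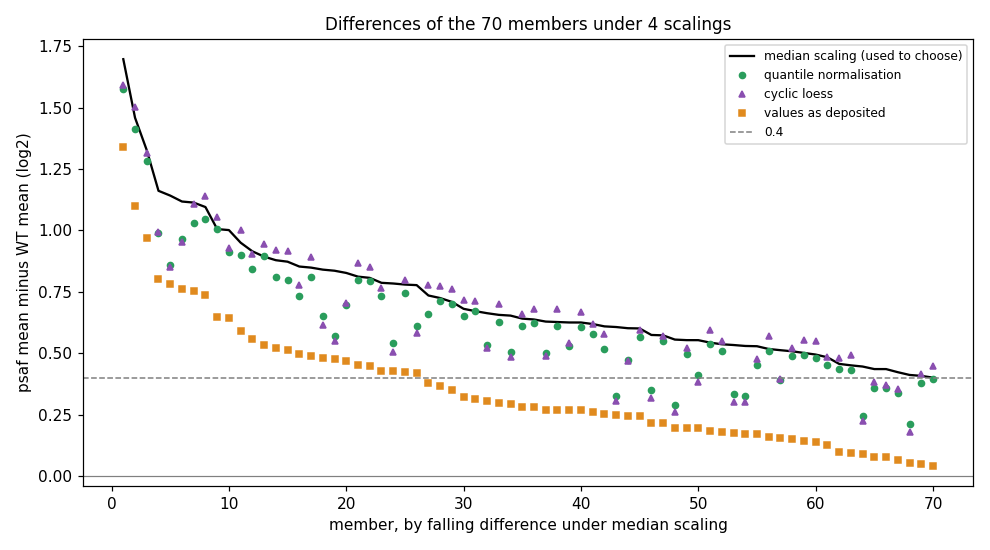
Log2 difference (psaf mean minus WT mean) of the 70 members, ordered by the difference after median scaling (black line), under quantile normalisation, cyclic loess and on the deposited scale (orange). The deposited values run parallel below the line, and 26 of them reach the dashed line at 0.4.

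Spread among WT pairs exceeded that among psaf pairs in members and in the 604 genes alike. The median SD of the WT pair means was 0.165 log2 and that of the psaf pair means was 0.117, against 0.202 and 0.134 over the 604 genes. In 13 members (18.6%) the lowest WT pair lay more than 0.5 log2 under the next, a size chosen after the values were seen, and in none did a psaf pair stand apart so far. The 604 genes were close to this, with 16.1% for such a low WT pair and 3.48% such a low psaf pair. A WT pair that far above the next was found in 1.43% of members and 5.79% of the 604. The rule shapes these shares in members, since a low psaf pair or a high WT pair makes overlap more likely. The low WT pair was arrays 1 and 2 for MAMI, AT2G38550, CBL, AT2G29180, AT2G46050, AT2G44760 and AT2G04700. It was arrays 3 and 4 for AT5G19050, AT1G01730, AT3G25840, AT5G52960, AT5G48830 and AT1G32160.

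Leaving out WT arrays 1 and 2 lowered the difference by more than 1.5 times in 6 members, and leaving out WT arrays 3 and 4 did so in 4. Beside those given above, the first setting brought AT2G29180 from 0.88 to 0.51, AT2G46050 from 0.85 to 0.54 and AT2G04700 from 0.66 to 0.42. The second brought AT5G48830 from 0.50 to 0.29 and AT1G32160 from 0.41 to 0.23. Without any one of the 6 close pairs the median member difference was 0.60 to 0.66, a range that the choice of members on these same arrays helps to keep narrow.

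In psaf, arrays 3 and 4 gave the highest pair mean for 38 members (54.3%), arrays 5 and 6 for 25 (35.7%) and arrays 1 and 2 for 7 (10%). Over the 604 genes the shares were 40.2%, 33.9% and 25.8%. Median member levels of the psaf pairs were 1.61, 1.74 and 1.65 in relative intensity for arrays 1 and 2, 3 and 4, and 5 and 6. The WT pairs stood at 1.08, 1.07 and 1.10.

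The rule did not use probe numbers. The differences of neighbouring probes come from the same scaled arrays, however, and some neighbours are members themselves. For each gene the median difference of the 4 nearest probe numbers, named or not, was taken. It was at or above 0.4 for 17 of the 70 members (24.3%) and for 72 of the 604 genes (11.9%). Its median was 0.13 beside members and 0.03 beside the 604. Across the 604 genes the correlation with a gene's own difference was 0.278 (Pearson), as a description, since neighbouring probes share arrays and possibly position, and the members are among the 604. The highest neighbour values were 0.85 beside AT2G38550, 0.80 beside AT2G21530, 0.74 beside AT2G27680 and 0.73 beside AT2G46050. In contrast, AT1G79480, AT5G06410 and AT3G25680 had neighbours at -0.52, -0.51 and -0.50.

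As examples of members with close probe numbers, AT2G27680 and AT2G21530 are on 3555 and 3556, and AT2G44760 and AT1G78620 are on 1508 and 1510. The neighbour correction took off only the deviation of the 4 nearest probe numbers from the median of their own genotype. A genotype difference shared by neighbours stayed in. After this correction, 63 members stayed at or above 0.4 (17.4% of the 604 did) and 62 kept the genotypes apart (17.1% of the 604). The correction lowered the difference by over 1.5 times for CBL (0.55), AT5G48830 (0.25), AT5G23540 (0.24) and LrgB (0.16). The part that position on the array has in these differences was not tested, and the sources used here do not give the layout of the array.

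**Figure D5:**
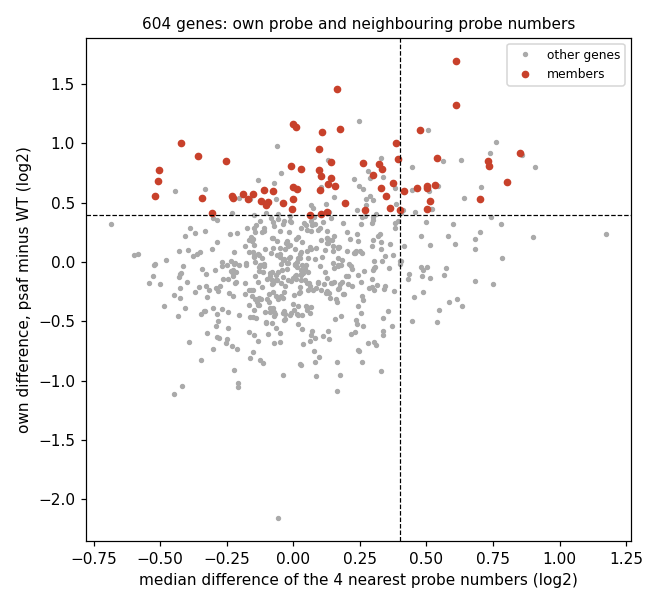
Own log2 difference (psaf minus WT, vertical) against the median difference of the 4 nearest probe numbers (horizontal) for the 604 genes, members in red. Dashed lines mark 0.4, and 17 of the 70 members lie to the right of the vertical line.

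In the order of protein-coding genes of the annotation, 7 pairs of members lay within 20 places of each other on a chromosome. Such pairs were not counted for the genes that could be members but were not. Whether 7 is more than other genes would give was therefore not tested, and the pairs are listed as a description. AT3G56290 and AT3G56330 were 4 places apart, with differences of 0.89 and 0.84, and AT3G56130 was 15 places from AT3G56290. LrgB and AT1G32160 were 8 places apart, and AT3G57050 (CBL) and AT3G57120 were 9 apart, as were AT5G19050 and AT5G19140 (AILP1). Probe numbers within the 7 pairs differed by 128 for AT1G21500 and AT1G21660 and by 318 or more for the other 6.

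Functional groups of the other named genes could be formed for few, since they rest on words in the annotation's gene names. The words for chloroplast and photosynthesis found 5 tested genes and no member. Of these, 3 were higher in psaf in limma over pair means, PSBW (0.90, adjusted p = 0.00591), PSBY (0.73, adjusted p = 0.0194) and CHL, a chloroplast lipocalin gene (0.60, adjusted p = 0.0437), and none were lower, beside 13.4% higher and 10% lower over all tested probes. The words for signalling found 2, of which CML30, a calmodulin-like gene, was higher (0.97, adjusted p = 0.00444). PSBY and CML30 met the values of the rule and were left out by name alone, so they are no separate evidence, and counts out of so few genes say little about a class. Of 5 genes found by the words for lipid, sugar and cell wall, GH9B12, a glycosyl hydrolase gene, was lower (-0.51, adjusted p = 0.0203). No tested gene passed among 3 for transcription and chromatin, 2 for redox and stress and 2 for trafficking and cytoskeleton, and none passed among 3 found by the words for protein turnover, 1 of which, THIC, matched by its letters alone.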

How the data were processed

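The deposited table holds 1 linear intensity per probe and array, and these intensity values were treated as normalised by the authors before deposit, because the 12 array totals were alike. The sources used here do not give the scanner, background correction or normalisation. Precision is limited by the number of independent samples, which the labels do not give. Values of 0 were treated as not measured. Each array was divided by its median over probes above 0 on all arrays and log2 was taken.

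Members and lists were chosen with earlier results of these data known. Arrays of a close pair (correlation 0.766, estimated by limma) were averaged on the log2 scale. Probes with at least 2 measured pair means per genotype entered a limma fit (version 3.58.1, with R 4.3.3; lmFit and eBayes, two-sided, Benjamini-Hochberg over all tested probes). This fit is used only for genes that are not members and for counts over all probes. It was tested on simulated data for psaf against WT with 3241 probes: 11 of 100 probes changed by 0.5 log2 and 63 of 100 changed by -1 were called, and 8.64% of calls were false. That share is above the adjusted p threshold of 0.05. The simulation differs from the data. Its noise within pairs was added to an SD of pair means that already holds such noise, and fewer probes were changed than the data had calls.

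Every member is named with its difference. Full values are given for the 12 largest and for those with a symbol. Genes were named from the platform annotation (870 probes had several genes and 1877 were unnamed here) and matched to RefSeq TAIR10.1 by Entrez ID, or by locus tag for 1 gene, for 691 of the 692 probes. No genome build is given for the arrays, so no coordinates are printed. Sequences of promoters, proteins and probes were not used here. Same-numbered WT and psaf arrays were not taken as paired: the labels do not say what a number marks, and the deviations of same-numbered arrays correlated above 0.1 for 4 of the 6 numbers but not for all (0.0074 to 0.298).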

Additional observations from a re-analysis of the deposited data

Results flagged for a closer look

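In each genotype, the highest and the lowest of the 6 arrays of every member was compared with the others by Dixon's gap over range at its tabulated critical value for 6 samples. Of 140 groups, 4 held such an array. Chance marks about 1 in 20 groups of independent samples, but arrays of a close pair are not independent and the members were chosen on these values, so that rate does not apply here. LrgB (AT1G32080) stood at 1.18 in relative intensity on psaf array 6, against 0.925 to 0.993 on the other psaf arrays. AT4G23080 read 0.94 on WT array 6 and 1.08 to 1.14 on the other WT arrays. AT3G56130 was at 0.133 on WT array 3 and at 0.216 to 0.286 on the rest of WT. AT3G50270 reached 3.76 on psaf array 4, with the others between 3.30 and 3.46.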

How the results depend on the processing

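The count of 70 genes became 16 on the deposited scale and 45 with a minimum difference of 0.6. It was 51 to 91 under the other settings, with 69 to 76 without any single array, and all 45 and all 16 were members. The median member difference of 0.64 was 0.28 on the deposited scale, 0.58 after quantile normalisation, 0.59 after cyclic loess and 0.53 with the offset. Without single arrays it was 0.64 to 0.66. Members without overlap fell from 70 to 22 on the deposited scale. Of 1610 member differences under 23 alternatives, none changed sign and 105 moved by more than the spread between pair means. Where arrays were left out, the sign was all but fixed by the rule, which put every psaf array above every WT array.

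Probes higher in psaf numbered 439, and 328 were lower. On the deposited scale these were 156 and 1108, with each array as a sample 943 and 715, at an adjusted p under 0.01 119 and 65, and after the neighbour correction 800 and 648. Quantile normalisation gave 281 higher. With the replicate number as a block over 12 arrays the counts were 998 and 777, while with pairs averaged the block, a setting added after seeing the data, gave 372 and 288. For 8 of the 12 arrays the best match in the other genotype had the same number, a hint from the data and not the design. Leaving out WT arrays 5 and 6 gave 262 higher. Without psaf arrays 1 and 2 the counts were 201 and 126, without 3 and 4 142 and 110, and without 5 and 6 144 and 92, each with fewer samples. Without single arrays they were 406 to 457 and 305 to 334. The causes of the other shifts were not tested. Dim signal limits AILP1, and the absence of replicate plants in the labels limits every spread given here.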
